A study of Mus musculus with 2 samples.

Results

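The serpins are a family of protease inhibitors, taken here as the protein-coding mouse genes whose GENCODE M21 symbol starts with Serpin. There were 61 of them among 54438 genes with listed transcripts, and they had 172 listed transcripts. The data are 2 RNA libraries, titled W1 and W2 and called so below, which the labels describe identically: flow-sorted basal cells of the mammary gland from wild type C57BL/6 mice aged 8 weeks, amplified by a Smart-seq protocol. The study set basal cells with Pd-l1 on their surface beside cells without it, but no label says which library is which. Values are therefore given for 2 single libraries, with no replicate and no p-value, and no difference below is a difference between Pd-l1 classes. The number of mice and the gates are not given in the labels.

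Most serpins trap a protease by letting it cut an exposed loop near the end of the inhibitor, the reactive centre loop, after which the inhibitor folds around the bound enzyme and both are lost. The letter after the name is the clade. Clade A holds secreted inhibitors made largely by the liver, such as the antitrypsins (Serpina1) and the antichymotrypsin-like genes (Serpina3), which have multiplied in mice. Clade B inhibitors act inside cells, and clades C to I include antithrombin, protease nexin 1, the C1 inhibitor, the collagen chaperone Hsp47 and neuroserpin. In mammary gland, maspin (Serpinb5) is known as a product of the myoepithelial layer.

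Levels are in TPM, transcript abundance corrected for length and scaled to the same total in each library, summed over the listed transcripts of a gene. The reads behind each level were worked out from the step sizes of the deposited values. The same steps imply library totals of 3055840 reads in W1 and 3800029 in W2. Ratios are ratios of the reads behind each level, scaled by the TPM that equal reads give in W1 over W2 at equal transcript length (1.0068). They can differ from the quotient of TPM where a gene has several transcripts, and they carry exact 95% intervals that cover counting error only. Where a library had 0 reads, a floor of 3 reads was used and the ratio is given as a lower bound. Such a bound is not a 95% limit, and exact 95% lower limits were lower. They were 871-fold against 1072-fold for Serpinb1a and 1.72-fold against 2.68-fold for Serpina3c.

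The libraries differed in their cell markers, and those of W1 went against the label. Basal markers summed to 195 TPM in W1 against 36963 TPM in W2, and of 10 compared 0 were higher in W1 and 9 in W2. Krt5, Cnn1 and Myh11 had 0 reads in W1, and Trp63 and Itgb4 had none in both. Luminal markers summed to 265 TPM in W1 against 5341 TPM in W2, and fibroblast markers to 3.19 TPM against 207 TPM, with 6 of 8 at 0 in W1. Endothelial markers summed to 5011 TPM in W1 against 8.22 TPM in W2, all 10 compared being higher in W1 and 9 of 12 at 0 in W2. Lymphatic endothelial markers summed to 13139 TPM in W1 against 8074 TPM in W2, mostly from Ccl21a (10177 TPM in W1 against 7543 TPM in W2). Of 5 compared, 3 were higher in W1 and 0 in W2, and 4 of 6 had 0 reads in W2, Lyve1 and Prox1 among them. The part of these markers in the serpin differences was not tested, and in bulk RNA fewer cells of a type and less RNA per cell cannot be told apart. A single RNA gene, Gm23935, took 27.7% of TPM in W1 against 4.13% in W2.

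Reads came from a minority of the family, and they were unevenly spread. Of the 61 genes, 21 had a read in at least 1 library and 40 had none in either. The 19 genes at 1 TPM or more in a library made up 31.1% of the family, against 39.2% of all protein-coding genes. The summed level of the family was 1345 TPM in W1 and 153 TPM in W2. In W1, Serpinb1a, Serpina3g and Serpina3n held 41.7%, 27.5% and 25.0% of that sum. In W2, Serping1, Serpina3n and Serpina3g held 36.8%, 33.2% and 16.1%.

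All 19 genes at 1 TPM or more lay 2-fold or more apart between the libraries on the TPM + 1 scale. Of these, 16 were higher in W1, which was true of 34.7% of the 12587 genes of all kinds compared in the same way, and 3 were higher in W2, against 32.9% of all genes. W2 had 0 reads on 11 of the 19, against 21.6% of all genes compared, and W1 had 0 reads on 1 of the 19, against 13.1%. The median log2 ratio of TPM + 1 was 2.12 over the 19 genes and -0.07 over all genes compared. Low genes pass the 1 TPM limit only through the library in which they are high, so these counts describe the genes read and not the family as a whole. Where a gene of any kind reached 1 TPM in W1 and also in W2 (6804 genes), the median log2 TPM ratio was -0.35.

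**Figure D1:**
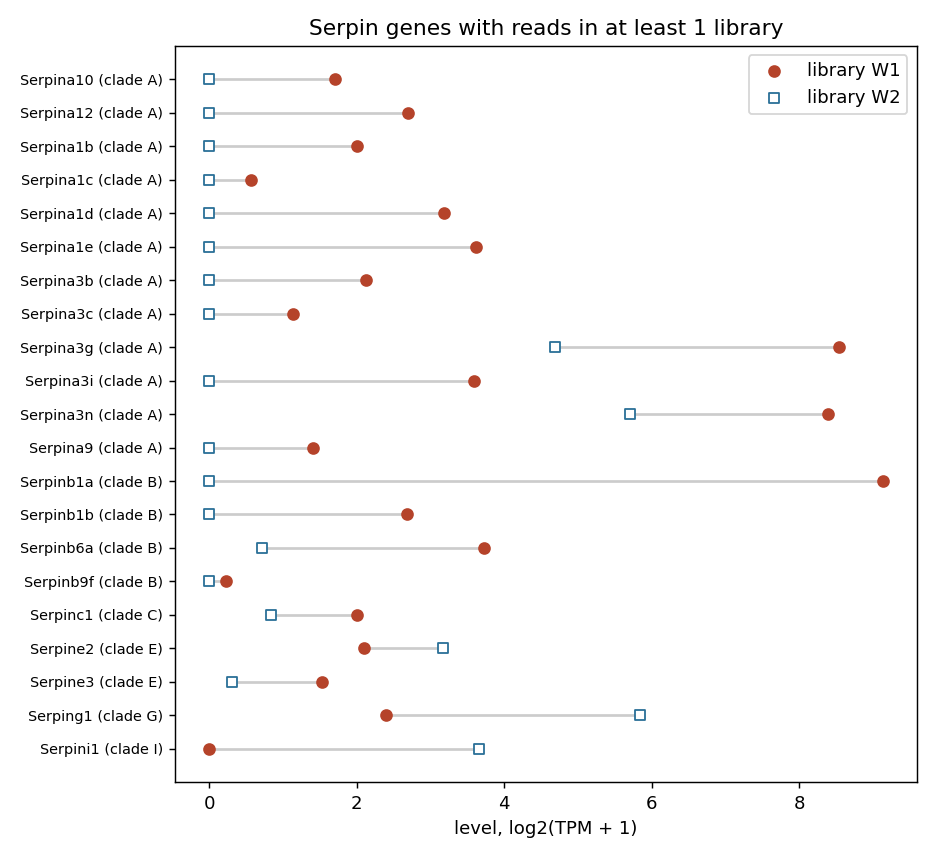
Levels of the 21 serpin genes with reads, as log2(TPM + 1) on the horizontal axis, with filled circles for W1 and open squares for W2. Circles lie to the right of squares for all genes except Serpine2, Serping1 and Serpini1, and Serpinb1a has the widest gap.

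Clade A is packed on chromosome 12, where 23 of its 24 genes lie between positions 103614786 and 104414329 (GRCm38). The paralogs are close copies, so a read can match several of them. The coding sequences of Serpina1b, Serpina1c, Serpina1d and Serpina1e were 96.3% to 96.7% identical. Those of the 5 Serpina3 genes with reads were 69.3% to 86.3% identical, the least for Serpina3b and Serpina3g and the most for Serpina3g and Serpina3i. Pairs with Serpina3g were aligned over 648 to 657 bases only. The other pairs were aligned over 1218 to 1257 bases and were 74.7% to 85.3% identical. In both groups the scored 60 bases that differed most between paralogs lay late in the coding sequence, the end that encodes the reactive centre loop. Only stretches without a gap in any gene of the group were scored. In the Serpina1 group that stretch was centred 92.0% of the way along, with 16.1% of bases differing per pair against a median of 2.78% over all 60-base stretches. In the Serpina3 group 39.8% of bases differed per pair, against a median of 16.3% over the stretches scored. That stretch was centred at least 89.4% of the way along in 4 of the genes, and 70.0% along the shorter annotated coding sequence of Serpina3g. The Serpina3g sequence has 747 bases, against 1227 to 1263 in the others, and its base 494 was aligned with base 1100 of Serpina3b. Early stretches of the Serpina3 group were therefore largely outside the search, and a late place was mostly set beforehand. The stretches are shown because they show where these near copies can be told apart. They are read 5′ to 3′ on the coding strand from the GENCODE M21 transcripts. Capitals mark bases that differ from Serpina1e in the first group and from Serpina3g in the second.

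Serpina1e: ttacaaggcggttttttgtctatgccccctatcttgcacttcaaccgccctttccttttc
Serpina1b: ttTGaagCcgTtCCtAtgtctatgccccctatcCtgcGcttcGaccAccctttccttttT
Serpina1c: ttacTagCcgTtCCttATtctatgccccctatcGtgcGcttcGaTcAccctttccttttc
Serpina1d: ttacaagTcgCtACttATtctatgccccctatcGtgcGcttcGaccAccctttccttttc
Serpina3g: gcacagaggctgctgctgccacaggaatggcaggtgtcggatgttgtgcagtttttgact
Serpina3b: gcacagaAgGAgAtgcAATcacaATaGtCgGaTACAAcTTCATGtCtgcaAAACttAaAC
Serpina3c: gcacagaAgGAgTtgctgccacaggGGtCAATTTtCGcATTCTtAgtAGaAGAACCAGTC
Serpina3i: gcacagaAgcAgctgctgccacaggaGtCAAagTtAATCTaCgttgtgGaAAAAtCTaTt
Serpina3n: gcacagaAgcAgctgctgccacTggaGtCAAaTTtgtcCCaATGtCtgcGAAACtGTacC

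Each stretch is coding sequence within 1 exon. On the minus strand, Serpina1e lies at chr12:103947087-103947146, Serpina1b at chr12:103728311-103728370, Serpina1c at chr12:103895081-103895140 and Serpina1d at chr12:103763749-103763808. On the plus strand, Serpina3g lies at chr12:104241073-104241132, Serpina3b at chr12:104138666-104138725, Serpina3i at chr12:104268481-104268540 and Serpina3n at chr12:104413449-104413508, and Serpina3c lies on the minus strand at chr12:104147327-104147386. Serpina1b, Serpina1c and Serpina1d differed from Serpina1e at 12, 12 and 10 of the 60 bases. Serpina3b, Serpina3c, Serpina3i and Serpina3n differed from Serpina3g at 31, 32, 21 and 23.

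A pair of members of the Serpina3 group carried nearly all clade A reads. Serpina3g (ENSMUSG00000041481.16, 104236245 to 104241939, plus strand), known as an intracellular inhibitor of cathepsins in mouse lymphocytes, had 370 TPM in W1 from 2011 reads, against 24.7 TPM in W2 from 136 reads. It was 14.9-fold higher in W1 (interval 12.5 to 17.8). Serpina3n (ENSMUSG00000021091.8, 104406729 to 104414329, plus strand), a secreted acute-phase inhibitor known to bind granzyme B in mice, had 336 TPM in W1 from 2102 reads, against 51.0 TPM in W2 from 321 reads. It was 6.59-fold higher in W1 (5.86 to 7.44). The order of the pair turned between the libraries, Serpina3g standing slightly above Serpina3n in W1 and below it in W2. The intervals of their ratios do not overlap. Serpina3n has 1 listed transcript with 2015 50-mers (overlapping stretches of 50 bases), of which 1876 are found in no other listed transcript, of the same gene or another, and are its own, and the main Serpina3g transcript has 1008 of 1754.

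The other Serpina3 genes with reads were listed in W1 alone. Serpina3i had 11.1 TPM from 74 reads in W1 and 0 reads in W2, at least 24.8-fold higher in W1. Of the 50-mers of its main transcript, 69.9% are its own and 84.6% are found in no other gene. How reads from the shared ones were counted is not stated. Serpina3b had 3.35 TPM from 21 reads and Serpina3c had 1.19 TPM from 8 reads in W1, both with 0 reads in W2. The bounds for these 2 genes were at least 7.05-fold and at least 2.68-fold. Their transcripts are well separated from other genes, with 97.1% and 95.7% of 50-mers of their own. Serpina3a, Serpina3f, Serpina3j, Serpina3k and Serpina3m had 0 reads in both libraries.

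Promoter sequence was available from RefSeq for Serpina3g, Serpina3i and Serpina3n, among other members (build GRCm38.p6, 250 bases before to 50 after the start). A gamma-activated site, the TTCNNNGAA motif bound by STAT factors, was in the Serpina3g window at -33 and in the Serpina3i window at -102, counted from the start, and was not in the Serpina3n window. The motif, which reads the same on both strands, was in 8.29% of 32817 promoter windows. The pair is shown because the 2 genes, next to each other in the order of protein-coding members, both hold the motif, while their levels in W1 were 370 and 11.1 TPM. Capitals mark the motif, and both windows are on the plus strand, at chr12:104235897-104236196 for Serpina3g and chr12:104262872-104263171 for Serpina3i.

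Serpina3g: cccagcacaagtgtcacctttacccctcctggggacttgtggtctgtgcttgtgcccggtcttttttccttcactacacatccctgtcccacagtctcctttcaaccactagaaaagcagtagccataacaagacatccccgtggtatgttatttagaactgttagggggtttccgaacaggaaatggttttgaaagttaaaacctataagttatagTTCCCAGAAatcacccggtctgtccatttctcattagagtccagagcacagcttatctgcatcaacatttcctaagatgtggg
Serpina3i: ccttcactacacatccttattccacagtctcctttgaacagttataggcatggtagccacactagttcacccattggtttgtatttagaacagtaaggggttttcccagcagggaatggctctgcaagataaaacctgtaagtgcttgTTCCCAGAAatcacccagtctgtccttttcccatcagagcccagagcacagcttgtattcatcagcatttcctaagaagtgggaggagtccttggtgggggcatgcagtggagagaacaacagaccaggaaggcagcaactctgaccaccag

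A match is a description of letters and not of binding. Of 5 other motifs searched on both strands (the interferon response core TTTCNNTTT, an NF-kB core GGANTTTCC, the AP-1 site TGANTCA, the HNF1 half-site GTTAATNAT and TATAAA), none was in the windows of Serpina3g, Serpina3i or Serpina3n. TATAAA was in those of Serpina3b and Serpina3c, and in 13.6% of all windows. Among the 16 windows of compared serpins, Serpinb6a also held the gamma-activated motif, at -77, where it overlaps an interferon response core at -84, and at 21. In all, 11 of 61 serpin windows held it, those of Serpina3f, Serpina11, Serpina1f, Serpinb2 and Serpinb9c included, genes with 0 reads in both libraries. Windows are not genes: Serpina11 and Serpina3f have overlapping windows that hold the same site. Serpinb1a and Serping1 had no window.

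Antitrypsin genes, whose products are made chiefly by liver and inhibit neutrophil elastase, were read at low levels in W1 and had 0 reads in W2. Serpina1e had 11.3 TPM from 54 reads in W1, at least 18.1-fold higher than in W2. Serpina1d had 8.05 TPM from 34 reads (at least 11.4-fold), and Serpina1b had 3.0 TPM from 16 reads (at least 5.37-fold). Serpina1c had 2 reads in W1, which is under the floor, and Serpina1a had none. Of the 50-mers of the main transcripts, 64.4% in Serpina1e, 64.2% in Serpina1b and 49.1% in Serpina1d are found in no other gene. The rest are shared with other genes, and how reads from them were counted is not stated. The shares found in no other listed transcript, of the same gene or another, were 16.4%, 17.2% and 49.1% in the same order. Of 6 hepatocyte markers, Alb, Apoa1, Apob, Ttr and Fgb had 0 reads in both libraries, and Trf stood at 5.26 TPM in W1 and 4.72 TPM in W2.

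Other clade A genes were also read in W1 alone. Serpina12, which encodes the adipokine vaspin, had 5.46 TPM from 61 reads in W1 and 0 reads in W2, at least 20.5-fold higher. All 3641 of its 50-mers are its own. Serpina10, an inhibitor of coagulation factor X that works with protein Z, had 2.26 TPM from 24 reads in W1 (at least 8.05-fold). Serpina9, known from germinal centre B cells, had 1.66 TPM from 18 reads in W1 (at least 6.04-fold). Adipocyte markers summed to 25.9 TPM in W1 and 25.0 TPM in W2, with members in both directions. Fabp4 had 91 reads in W1 and 0 in W2, Car3 had 1 read in W1 and 17 in W2, and Adipoq and Plin1 had 0 reads in both. Leukocyte markers summed to 88.7 TPM in W1 and 7.17 TPM in W2.

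**Figure D2:**
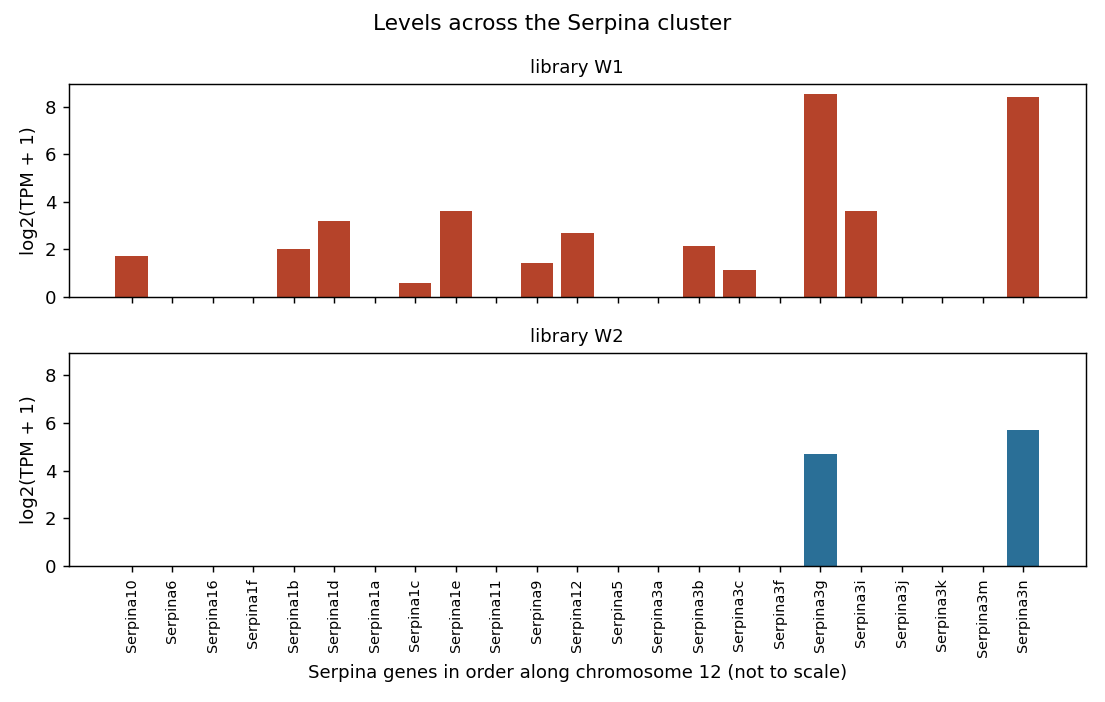
Levels of the 23 Serpina genes of chromosome 12 as log2(TPM + 1), in their order along the chromosome, W1 above and W2 below. In W1, 12 genes have a bar, while in W2 only Serpina3g and Serpina3n do.

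Clade B had 26 genes, of which 11 lie on chromosome 1 and 15 on chromosome 13, and it was read almost wholly through a single gene. Serpinb1a (ENSMUSG00000044734.16, chromosome 13, 32842092 to 32851185, minus strand), which encodes an inhibitor of neutrophil elastase, cathepsin G and proteinase 3 inside cells, had 561 TPM in W1 from 3194 reads. W2 had 0 reads on it, so the level in W1 was at least 1072-fold higher. Of the 3194 reads, 3166 lay on 1 coding transcript, which has 1151 50-mers of its own. With 0 reads in W2 and 3194 in W1, this was the widest separation among the 61 genes. Its paralog Serpinb1b had 5.45 TPM from 28 reads in W1 and 0 reads in W2 (at least 9.40-fold), and Serpinb1c had 0 reads in both. Of the 1647 50-mers of the main Serpinb1b transcript, 58 are shared with other genes, chiefly Serpinb1a. How reads from these were counted is not stated.

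Serpinb6a, an inhibitor of cathepsin G and other serine proteases in the cytoplasm, had its reads on different transcripts in each library. It had 12.2 TPM from 47 reads in W1, against 0.636 TPM from 3 reads in W2, 15.8-fold higher in W1 by reads (5.08 to 79.2). No transcript of the gene had reads in both libraries. In W1, 46 of the reads lay on a processed transcript (26 reads) and a retained intron (20 reads), and 1 read on a coding transcript. On coding transcripts alone the gene had 0.396 TPM in W1 and 0.636 TPM in W2, the other direction. Nqo2, Ripk1 and 1110046J04Rik overlap exons of Serpinb6a on the opposite strand, and their levels ran in both directions. Nqo2 stood at 8.49 TPM in W1 and 0.768 TPM in W2, Ripk1 at 21.7 TPM in W1 and 3.93 TPM in W2, and 1110046J04Rik at 15.4 TPM in W1 and 59.1 TPM in W2. Whether the counting used strand is not stated, so reads of such partners cannot be told apart. Serpinb9f had 1 read in W1.

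The other 22 clade B genes had 0 reads in both libraries, maspin (Serpinb5) among them. The longest coding transcript of Serpinb5 has 174 50-mers of its own, or 6.63% of all it has, while all 2623 are found in no other gene. Serpinb2, which encodes plasminogen activator inhibitor 2, has 87, and Serpinb9, the mouse granzyme B inhibitor, has 94. Serpinb7, Serpinb8 and Serpinb9b have 1575, 1575 and 2668, and also had 0 reads.

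The genes of clades C to I are single genes or small groups, and they were divided between the libraries. Serping1 (ENSMUSG00000023224.12, chromosome 2, 84765387 to 84775444, minus strand) encodes the C1 inhibitor, which blocks complement C1r and C1s and plasma kallikrein. It had 4.29 TPM in W1 from 23 reads, against 56.4 TPM in W2 from 304 reads, 13.1-fold higher in W2 (8.59 to 21.0). All reads lay on 1 transcript, of which 427 of 1719 50-mers are its own.

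Serpini1 (ENSMUSG00000027834.15, chromosome 3, 75557547 to 75643495, plus strand) encodes neuroserpin, an inhibitor of tissue plasminogen activator best known from neurons. It had 0 reads in W1 and 145 reads, 11.6 TPM, in W2, where it was at least 48.0-fold higher. It was the single compared serpin with no read in W1. Serpine2 (ENSMUSG00000026249.10, chromosome 1, 79794197 to 79861180, minus strand), protease nexin 1, an inhibitor of thrombin and plasminogen activators, had 3.29 TPM from 22 reads in W1, against 8.01 TPM from 54 reads in W2. It was 2.44-fold higher in W2 (1.46 to 4.20), and it lost its place past 2-fold on the TPM + 1 scale under 4 other settings, which include centring the libraries on each other (log2 ratio -0.76, against -1.07).

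Serpinc1, antithrombin, had 3.03 TPM from 45 reads in W1 and 0.791 TPM from 12 reads in W2, 3.78-fold higher in W1 (1.96 to 7.84). Zbtb37, which overlaps its exons on the opposite strand, had 37 reads in W1 and 20 in W2. Serpine3 had 8 reads in W1 and 1 read in W2, 8.05-fold by reads with an interval of 1.08 to 357, and it is overlapped by Ints6 on the opposite strand, with 190 reads in W1 and 245 in W2. The values of Serpinc1 and Serpine3 are therefore uncertain.

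**Figure D3:**
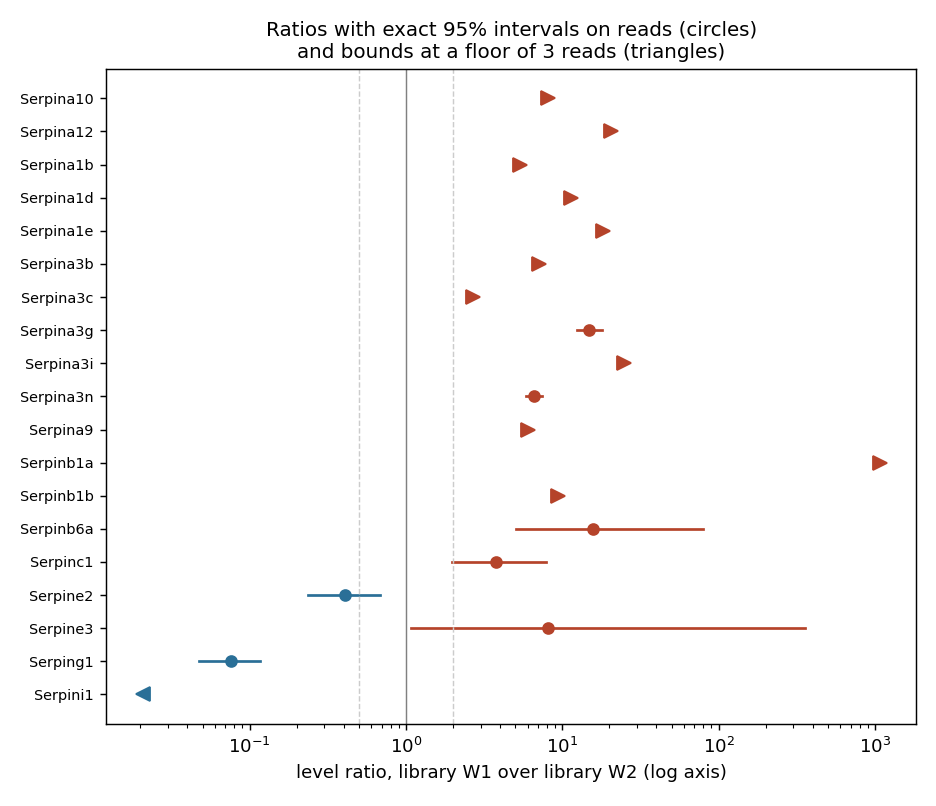
Ratio of level, W1 over W2, on a log axis for the 19 serpin genes at 1 TPM or more in a library. Circles carry exact 95% intervals on reads, triangles are bounds from a floor of 3 reads and dashed lines mark 2-fold; Serpine2, Serping1 and Serpini1 lie left of 1 and Serpinb1a is the farthest to the right.

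Several serpins known from blood vessels, connective tissue and plasma were listed at 0 in both libraries. Among them were Serpinh1, the collagen chaperone Hsp47, Serpinf1, pigment epithelium-derived factor, Serpinf2, the plasmin inhibitor, and Serpind1, heparin cofactor II. Their longest coding transcripts have 21, 410, 0 and 187 50-mers of their own. All of their 50-mers are found in no other gene, so the sharing is with other transcripts of the same gene. A listed 0 does not show that such a gene was silent. Among the 172 serpin transcripts, 0 of 16 with no 50-mer of their own had a read, against 12 of 113 (10.6%) with 1 to 500 and 18 of 43 (41.9%) with more than 500. The number of own 50-mers is limited by transcript length. The same counts were not made over all transcripts, and the cause of the zeros was not tested. Over genes, 18 of the 40 serpins at 0 have a longest coding transcript with more than 500 of its own, against 15 of the 21 with reads. The median number of own 50-mers was 370 for serpins at 0 and 1353 for those with reads. Among the 18 at 0 are Serpina5, Serpina6, Serpinb7, Serpinb11 and Serpini2. For these 18 the floor of 3 reads stood at 0.216 to 0.814 TPM in W1 and at 0.215 to 0.809 TPM in W2. The share of serpins with reads was 47.1% among the 17 with 1 listed transcript and 29.5% among the 44 with more, while for all protein-coding genes it was 36.2% and 51.6%.

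Because own sequence differs so much between transcripts, the order of levels was also read as reads per 1000 own 50-mers of the most read transcript. In W1 the order at the top was the same as by TPM: 2751 for Serpinb1a, 1988 for Serpina3g and 1120 for Serpina3n, and Serpina1e followed at 215. In W2 Serping1 stood at 712, Serpina3n at 171, Serpina3g at 135, Serpine2 at 62.4 and Serpini1 at 44.1. By TPM the gap between Serping1 and Serpina3n in W2 was small, 56.4 against 51.0 TPM. The measure divides all reads of a transcript by its own 50-mers, which is fair only if shared reads were left out. How shared reads were counted is not stated. The transcript of Serping1 has 427 own 50-mers of 1719, against 1876 of 2015 for Serpina3n. The wider gap between these genes on this measure therefore depends on that assumption.

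**Figure D4:**
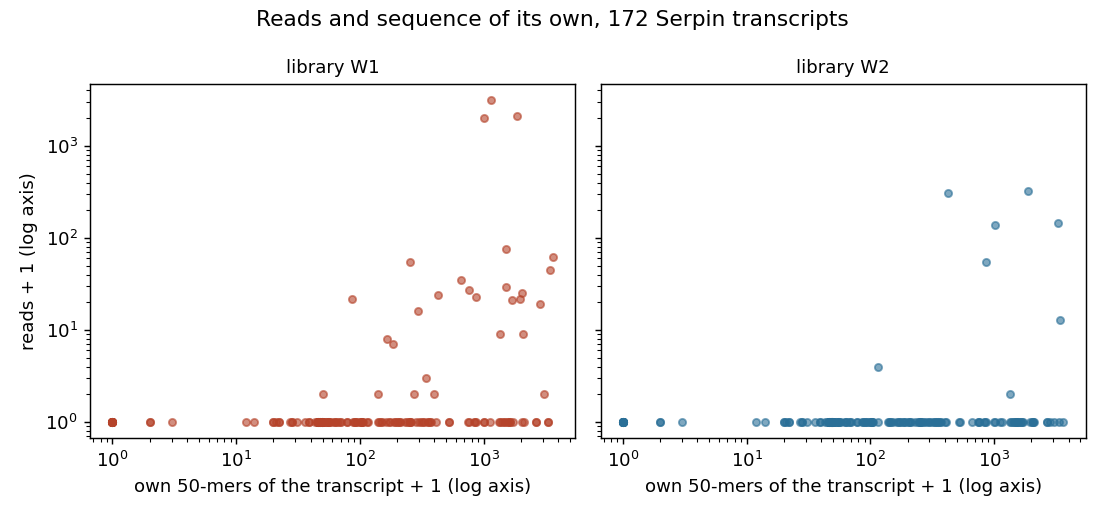
Reads per transcript (plus 1, vertical log axis) against the number of 50-mers found in no other listed transcript (plus 1, horizontal log axis) for the 172 serpin transcripts, W1 on the left and W2 on the right. No transcript at the far left, with 0 own 50-mers, has a read in either library.

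Lists of related genes were read in the same way, against 34.7% of all genes higher in W1 and 32.9% higher in W2. The first holds 42 genes, serine proteases taken here as known or possible targets of serpins and also tissue factor, F3, a cofactor of factor VIIa and no protease. Of these, 13 were compared, with 4 higher in W1 and 7 higher in W2. The median log2 ratio, -1.35, is that of Prtn3, which had 0 reads in W1 and 4 reads in W2. Higher in W2 were St14, matriptase, with 0 reads in W1 and 31.7 TPM in W2, and Tmprss2, with 0.30 TPM in W1 and 23.5 TPM in W2. Prss23 had 1.53 TPM in W1 and 23.9 TPM in W2, and F3 had 0 reads in W1 and 6.65 TPM in W2. Higher in W1 were C1s1 (5.68 TPM, 9 reads), Masp2 (3.02 TPM, 28 reads) and Ctsg (2.64 TPM, 8 reads), all with 0 reads in W2. Urokinase, Plau, had 3.81 TPM in W1 and 0.700 TPM in W2. Tissue plasminogen activator, Plat, a target of Serpine2 and Serpini1, had 815 TPM in W1 and 423 TPM in W2, 1.84-fold by reads (1.76 to 1.92) and within the 2-fold rule.

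Cysteine proteases, which some clade A and B members inhibit, had 3 of 6 compared genes higher in W1 and 1 higher in W2 (median 0.81), with 34.7% and 32.9% over all genes. Caspase 1, Casp1, had 55.6 TPM in W1 and 18.6 TPM in W2. Ctsk had 19.9 TPM in W1 and 7.15 TPM in W2, and Ctsh had 7 reads in W1 and 0 in W2. Cathepsin B, Ctsb, had 100 TPM in W1 and 300 TPM in W2, 3.0-fold higher in W2 (2.83 to 3.19).

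Of 17 compared cofactors and receptors that serpins and their targets use, 9 were higher in W1 and 7 in W2 (median 1.21), again beside 34.7% and 32.9% over all genes. Thrombomodulin, Thbd, had 12629 reads in W1 and 0 in W2. Itgav had 53.1 TPM in W1 and 1.89 TPM in W2, and Procr had 25.1 TPM in W1 and 2.65 TPM in W2. In the other direction, the heparan sulphate carriers Sdc4 (51.7 TPM in W1 and 2502 TPM in W2) and Sdc2 (0.936 TPM in W1 and 74.5 TPM in W2) led. The clearance receptor Lrp1 had 0.044 TPM in W1 and 15.2 TPM in W2, and F2rl1 had 0 reads in W1 and 109 in W2. Endothelial markers were higher in W1, as were Thbd and Procr, and basal markers in W2, as were Sdc4 and Sdc2; the part of the markers was not tested.

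Collagen genes and the enzymes that modify collagen, the partners of Hsp47, had 1 of 14 compared genes higher in W1 and 8 higher in W2 (median -1.54), beside the same 34.7% and 32.9%. Col4a1 had 14.3 TPM in W1 and 6.02 TPM in W2. Col6a1 had 0.805 TPM in W1 and 185 TPM in W2, Col1a1 had 0 reads in W1 and 33.4 TPM in W2, Col3a1 had 0.415 TPM in W1 and 10.96 TPM in W2, and Col5a2 had 1.59 TPM in W1 and 17.3 TPM in W2. Fibroblast markers, which share Col1a1, Col1a2 and Col3a1 with this list, were higher in W2. Of 9 compared inhibitors of other families, 3 were higher in W1 and 2 in W2 (median 0.13), which is near the 34.7% and 32.9% of all genes. Tfpi2 (210 reads and 45.3 TPM in W1, 0 reads in W2), Itih5 (44.5 TPM in W1 and 11.9 TPM in W2) and A2m (24 reads in W1, 0 in W2) were higher in W1. Slpi, a secreted elastase inhibitor of epithelia, had 0 reads in W1 and 47.9 TPM in W2, and cystatin B, Cstb, had 1321 TPM in W1 and 2789 TPM in W2.

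**Figure D5:**
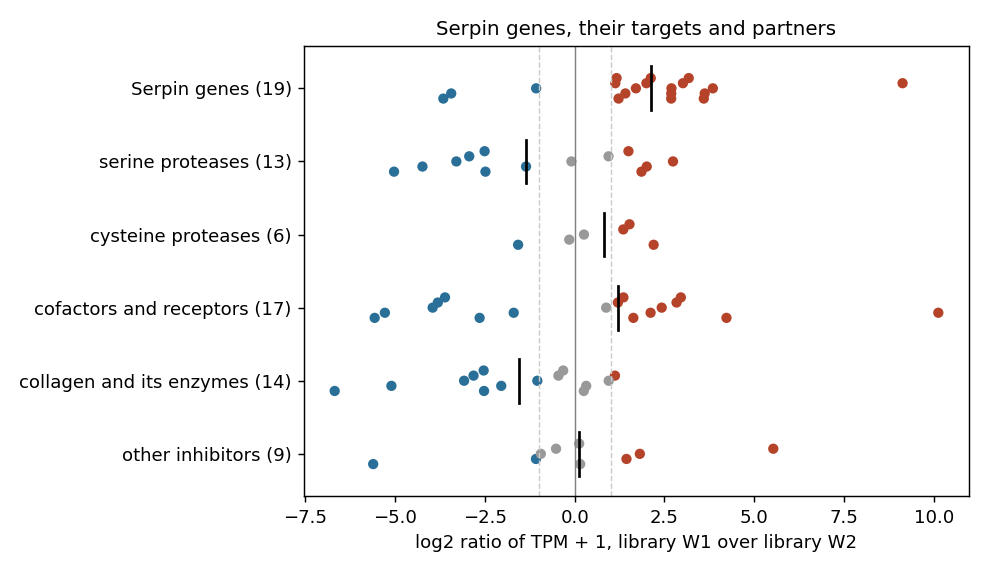
Log2 ratios of TPM + 1, W1 over W2, for the serpin genes and 5 lists of related genes at 1 TPM or more in a library, with the number compared in brackets, black bars at the medians and dashed lines at 2-fold. The serpin median lies at 2.12, and those of the list of serine proteases (F3 included) and of collagen genes lie at -1.35 and -1.54.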

How the data were processed

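Expression was measured in 2 RNA libraries, W1 and W2, both left without a group because the labels do not separate them. The authors deposited TPM and FPKM values for 137767 Ensembl transcripts, per the file headers, and the submitters' processing notes name Bowtie 0.12.2 and the builds mm8 and GRCm38 without a role. Neither the labels nor the headers name the counter, its annotation or its use of strand. Both tables hold 1 column a library and 0 further value columns.

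Of the listed transcripts, 137654 matched GENCODE M21 (GRCm38), perhaps another annotation than the authors'. TPM was summed per gene. Reads were recovered from FPKM times annotated transcript length, and 98.47% and 98.07% of transcripts above 0 came out whole within 0.1 read in libraries W1 and W2. All 36 serpin transcript values above 0 did so. The procedure was also run on simulated reads with counting error alone and the same transcript lengths. That run could not test the effect of another annotation or of noise from amplification. The statistic was the log2 ratio of TPM + 1, which understates ratios of low genes, for genes at 1 TPM or more in a library, with 2-fold as the rule. Clopper-Pearson intervals at 95% cover counting error only, and bounds from floors of 3 reads leave out counting error in the library with reads. 50-mers were counted over all listed transcripts on the sense strand. The members and lists were chosen with earlier results of these data known. Genes named are all serpins with reads and, of each related list, up to 4 with the largest ratios past 2-fold in each direction; Plat, and serpins at 0, were named after their values were seen. Some genes that this rule covers are not reported here. Software was matplotlib 3.10.9, pandas 2.3.3, scipy 1.17.1, numpy 2.4.6 and Python 3.11.15, with MAFFT for the alignments.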

Additional observations from a re-analysis of the deposited data

How the results depend on the processing

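The 19 serpin calls kept their direction under each alternative in which they were compared. On coding transcripts alone Serpinb6a stood under 1 TPM and in the other direction, at 0.396 TPM in W1 and 0.636 TPM in W2. The counts of 16 and 3 became 9 and 2 with a pseudocount of 5, where 11 of 19 stayed past 2-fold. The median log2 ratio of serpins was 4.14 with a pseudocount of 0.1, 0.74 with a pseudocount of 5, 2.0 with no filter, 2.69 for genes with at least 20 reads in a library, 2.11 on FPKM and 2.26 without mitochondrial and ribosomal genes. The share of all genes past 2-fold, 67.6%, was 71.9%, 36.7%, 53.8%, 63.6%, 65.9% and 70.8% in the same order, and 65.7% with levels centred on the median of shared genes. Chosen after seeing the data were coding transcripts alone (median 2.06, share 62.7%) and levels without Gm23935, an RNA gene with 27.7% of TPM in W1 (median 2.49). Serpine2 fell within 2-fold with a pseudocount of 5, on FPKM, with centred levels and without Gm23935. The cause of these shifts was not tested beyond the construction of each setting. No paired analysis was possible because each library stands alone, and none could be left out.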

Other observations

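Serpin genes that GENCODE M21 does not class as protein-coding had few reads. Serpina3e-ps had 2 reads and Serpina3h had 1 read in library W1, with 0 reads each in library W2. Serpinb10, annotated as a polymorphic pseudogene on chromosome 1, had 0 reads in library W1 and 2 reads in library W2. None of these exceeds the floor of 3 reads.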
